A study of Mus musculus with 8 samples.

Results

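The genes described here are the interleukin receptor genes of mouse spleen, 35 of the 24203 named genes on the array, measured by 70 of its 41886 named features. They were chosen by name: every gene whose symbol in the array design begins with Il, a number and r was taken, apart from Il2ra, Il2rb, Il7r, Il13ra1 and Il17rb, which the choice of genes leaves out. The rule itself uses no measured value, but it was set with earlier results of these data known. By current nomenclature 3 of the 35 names are old: Il8ra and Il8rb are the chemokine receptors Cxcr1 and Cxcr2, and Il28ra is the interferon lambda receptor chain Ifnlr1. Il1rn is no receptor but the secreted antagonist of the interleukin-1 receptor, taken in by its name.

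Spleen RNA of 4 miR-155 knockout mice was compared with spleen RNA of 4 wild-type mice on 1-colour NimbleGen arrays, 1 animal per array, to ask which transcripts differ when the microRNA is missing. The knockout animals were Mim1-5 and Mim1-6, labelled female, and Mim2-2 and Mim2-3, labelled male. The wild-type animals were WT-1 and WT-3, labelled female, and WT-2 and WT-4, labelled male. Strain, age, health and any treatment of the mice, and the design of the deletion, are not given in the sources used here. Both knockout females have the prefix Mim1 and both knockout males the prefix Mim2, so sex and prefix cannot be told apart in that group. Nothing in the labels says whether the knockout and wild-type mice were littermates.

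Interleukin receptors are built from chains that many cytokines share: one chain binds a given interleukin, and a partner such as the common gamma chain, gp130 or the interleukin-1 receptor accessory protein carries the signal. Most act through Janus kinases and STAT proteins, while the interleukin-1 and interleukin-17 families act through adaptor proteins. In the spleen these receptors sit on B cells, T cells, macrophages and granulocytes, and several members of the families are decoys or secreted inhibitors. miR-155 is a microRNA made from the BIC transcript in activated lymphocytes and myeloid cells, and it lowers the transcripts that pair with its seed.

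The microRNA that the knockout mice lack is shown because it defines the groups. The mature sequence is from RefSeq, at chr16:84714143-84714165 on the plus strand of GRCm38.p6, and the capitals mark the seed, bases 2 to 8.
mmu-miR-155-5p: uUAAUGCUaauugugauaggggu

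Values are log2 of the deposited RMA intensity, so a difference of 1 is a doubling. Where a gene had several features, the feature with the highest mean over the 8 arrays stands for it. Median intensity was 112.1 to 119.1 on the linear scale, and the entry for random probes, which serves as the background level, read 4.94 to 5.24 on the log2 scale. The arrays Mim2-2 and Mim2-3 stood apart from the rest: over all features they correlated at 0.811 to 0.877 with the other 6 arrays, and these correlated at 0.911 to 0.943 with each other. The host transcript of miR-155, BIC (chr16:84713276-84715489, build MM9), read 7.51, 5.37, 5.28 and 5.46 in the knockout spleens, against 5.27, 4.84, 4.85 and 5.63 in the wild-type spleens. A probe for the host transcript does not show whether the microRNA hairpin is missing, so it checks no genotype label. Xist read 8.35 to 11.1 over all 8 arrays, and the Y-linked Ddx3y averaged 7.82 in labelled females and 7.76 in labelled males, so these genes did not separate the labelled sexes. Ddx3y differed between the genotypes instead, at 8.83, 8.39, 8.78 and 8.66 in the knockout spleens, against 7.25, 7.33, 6.82 and 6.26 in the wild-type spleens, without overlap (difference 1.75, adjusted p = 0.262 in limma). Xist differed by -1.04 with an adjusted p of 0.391 in limma. Spleen lymphocyte markers were present, with all 10 B cell and all 10 T cell markers above the random probes on every array. Markers of other tissues were present too, and their values stand beside the receptor results below.

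The receptor genes covered the whole range of signal. Signal above the random probes on every one of the 8 arrays was present for 21 of the 35 genes, which is 60.0%, against 65.4% of all genes. Another 13 lay above them on 1 to 7 arrays, and Il22ra2, which encodes a soluble interleukin-22 binding protein, on none. Per array, 27, 30, 27 and 28 of the 35 genes were above the random probes in the knockout spleens Mim1-5, Mim1-6, Mim2-2 and Mim2-3, against 29, 29, 34 and 31 in the wild-type spleens WT-1 to WT-4. The brightest feature belonged to Il2rg, at percentile 93.4 of all genes. Il4ra at percentile 88.9, Il10rb at 87.7 and Il6ra at 86.5 came next, and the median gene of the family lay at percentile 51.1. Probes differ in how well they bind, so these ranks order signal and not numbers of transcripts.

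**Figure D1:**
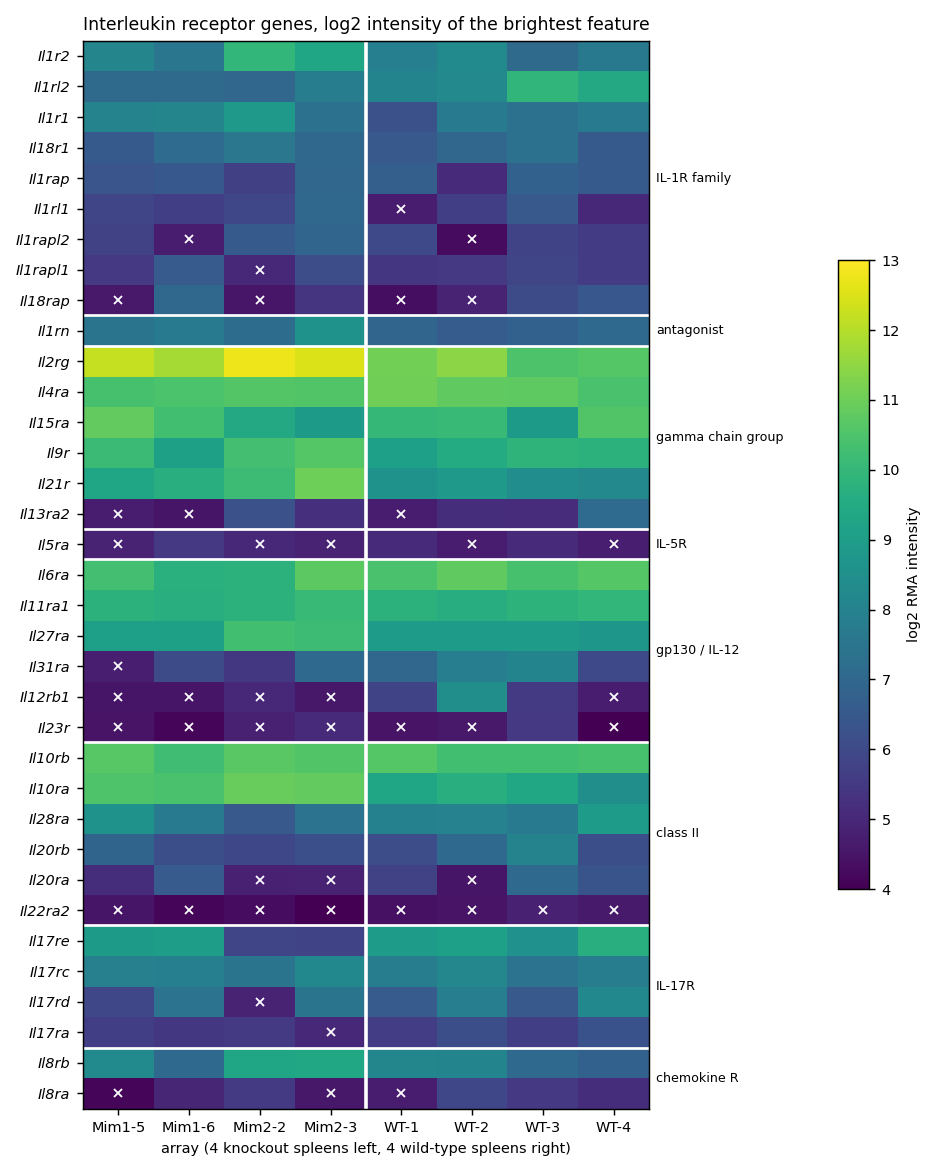
Log2 RMA intensity of the brightest feature of each of the 35 interleukin receptor genes (rows, grouped by receptor family) on the 8 arrays (columns, knockout left of the white line, wild type right), with crosses where the value was not above the random probes of that array. Il2rg is the brightest row, Il22ra2 has a cross in every column, and Il17re is dim only in the Mim2-2 and Mim2-3 columns.

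No interleukin receptor gene passed the test for a genotype difference. In limma with sex as a term and Benjamini-Hochberg adjustment over all 44170 features, 0 features reached an adjusted p under 0.05 (0% of them), and the lowest adjusted p was 0.224 over all features and 0.262 among the receptor genes. At an unadjusted p under 0.05 the same fit had 6122 features, 13.9% of all. With limma's trended and robust variance, 16 features passed the adjusted threshold, and no receptor gene was among them. Of the 35 receptor genes, 6 were higher in knockout spleens at an unadjusted p under 0.05, beside 7.7% of all genes, and 3 were lower, beside 6.61% of all genes. That makes 9 genes in either direction, beside 14.3% of all genes. The 6 were Il2rg, Il10ra, Il21r, Il27ra, Il1r2 and Il1rn, and the 3 were Il1rl2, Il17re and Il31ra. In direction alone, 19 genes were higher and 16 lower in knockout spleens, with a median difference of 0.05, against 0.06 over all genes. The median size of the difference, without its sign, was 0.55 for the receptor genes and 0.40 for all genes. In 5 genes every knockout array lay above every wild-type array, beside 5.27% of all genes, and in 1 gene every knockout array lay below, beside 2.55% of all genes. Without the sex term, 4 genes were higher and 3 lower at an unadjusted p under 0.05 in limma, beside 6.92% and 5.25% of all genes. Leaving out single arrays moved these counts and the shares of all genes. Without WT-2 or without WT-4, 3 genes were higher, beside 5.17% and 4.58% of all genes. Without Mim2-2 or without WT-2, 1 was lower, beside 4.87% and 3.85% of all genes. The count of genes with all knockout arrays below became 3 without Mim1-5 or WT-4 and 2 without Mim2-2 or Mim2-3. Leaving out an array can only keep or raise that count, and the share of all genes was not computed for these smaller sets.

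**Figure D2:**
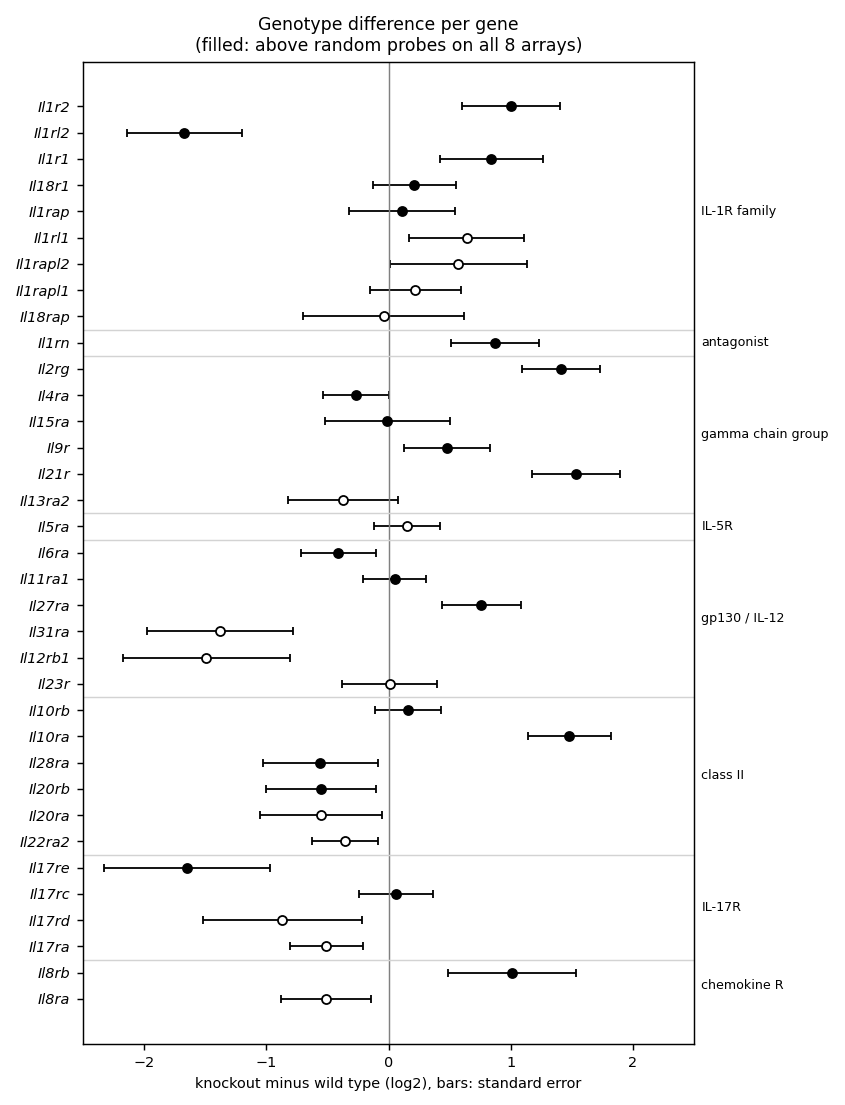
Knockout minus wild type difference (log2, horizontal axis) of the brightest feature of each receptor gene, grouped by receptor family, with bars of 1 standard error from limma and filled points for the 21 genes above random probes on all 8 arrays. The points run from -1.67 for Il1rl2 to 1.53 for Il21r, on both sides of 0 in most families.

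The common gamma chain and 1 of its partners, Il21r, were higher in knockout spleens at an unadjusted p under 0.05 in limma, and the other 4 genes of the group were not. Il2rg (chrX:98459728-98463522, MM9) encodes the gamma chain that the receptors for IL-2, IL-4, IL-7, IL-9, IL-15 and IL-21 share, and its loss causes severe combined immunodeficiency. It read 12.22, 11.78, 12.78 and 12.51 in the knockout spleens Mim1-5, Mim1-6, Mim2-2 and Mim2-3, against 11.10, 11.45, 10.47 and 10.62 in the wild-type spleens WT-1 to WT-4. Every knockout array was above every wild-type array, and the lowest knockout value was that of Mim1-6. The means were 12.32 ± 0.43 in knockout and 10.91 ± 0.45 in wild-type spleens (SD, n = 4 each). The difference was 1.41 ± 0.32 (SE), or 2.66-fold, with an unadjusted p of 0.0017 and an adjusted p of 0.262 in limma. The exact two-sided permutation test gave p = 0.0286, the smallest that the 70 arrangements of the arrays allow. Without the 2 Mim2 arrays the difference was 1.21. With sex in the fit, each value without both Mim2 arrays sets the Mim1 arrays against the wild-type females WT-1 and WT-3 alone. From bulk tissue, more cells that carry a transcript and more transcript per cell cannot be told apart, for this gene or any other here.

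The promoter of Il2rg is shown as that of the brightest receptor gene and of one that was higher in knockout spleens. It covers 250 bases before to 50 after the gene's start, chrX:101268206-101268505 on the minus strand of GRCm38.p6, from RefSeq. The capitals mark the 1 match to TGTGGT, the core that RUNX factors bind, searched on both strands together with the STAT site TTCNNNGAA and GAGGAA. The letters GAGGAA are a form of the site that ETS factors bind, and other forms were not searched or marked.
Il2rg promoter: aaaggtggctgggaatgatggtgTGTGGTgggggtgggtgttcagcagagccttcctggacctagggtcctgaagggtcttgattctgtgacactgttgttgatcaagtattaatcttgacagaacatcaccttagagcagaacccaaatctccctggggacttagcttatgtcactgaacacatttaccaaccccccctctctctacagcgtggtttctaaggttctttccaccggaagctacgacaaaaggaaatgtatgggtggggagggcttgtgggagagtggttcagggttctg

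Il21r (chr7:132746990-132776572, MM9) encodes the interleukin-21 receptor of B and T cells, which pairs with the gamma chain. It read 9.30, 9.67, 10.18 and 11.02 in the knockout spleens, in the same order of animals, against 8.59, 8.82, 8.42 and 8.24 in the wild-type spleens. The genotypes did not overlap, and the knockout values spread wider, with the Mim2 pair highest. The difference was 1.53 ± 0.36 (SE), or 2.88-fold, with an unadjusted p of 0.00201 and an adjusted p of 0.262 in limma, and 0.98 without the Mim2 arrays. The second feature of the gene, above random probes on 6 of 8 arrays, differed by -0.31. The promoter of Il21r, chr7:125603179-125603478 on the plus strand of GRCm38.p6 from RefSeq, also held 1 match to the RUNX core, on the opposite strand, so that the capitals read as its reverse complement.
Il21r promoter: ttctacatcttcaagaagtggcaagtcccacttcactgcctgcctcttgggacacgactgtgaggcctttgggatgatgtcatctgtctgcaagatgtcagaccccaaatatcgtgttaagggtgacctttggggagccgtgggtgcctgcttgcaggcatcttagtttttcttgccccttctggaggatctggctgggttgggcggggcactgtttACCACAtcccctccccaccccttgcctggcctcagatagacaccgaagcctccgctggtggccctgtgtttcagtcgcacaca

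Of the 32851 promoters in the RefSeq table, 16.8% hold the RUNX core, 28.3% the letters GAGGAA and 8.3% the STAT site. For 29 of the 35 receptor genes the table has a promoter, 37 in all. Of these 37, 9 hold the RUNX core, 13 the letters GAGGAA and 3 the STAT site. A match is a string of letters and not a shown binding site.

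The other partners of the gamma chain did not differ to the same extent. Il4ra, the chain that binds interleukin-4 and also serves interleukin-13, lies next to Il21r on chromosome 7 (chr7:132695795-132722988, MM9), and its brightest feature differed by -0.27, with knockout spleens at 10.39 to 10.59 and wild-type spleens at 10.43 to 11.04. Its dimmer features differed by 0.40 and 0.88, so the sign depended on the feature. Il9r, the interleukin-9 receptor, was at 9.10 to 10.63 in knockout and 9.08 to 9.87 in wild-type spleens, a difference of 0.48. Il15ra, which holds interleukin-15 for presentation to neighbouring cells, averaged 9.88 in knockout and 9.89 in wild-type spleens. Il13ra2, a decoy for interleukin-13 that was put in this group though it does not pair with the gamma chain, had signal above random probes on 5 of 8 arrays.

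Il5ra (chr6:106661968-106695531, MM9), the binding chain for interleukin-5, pairs with the beta common chain and not with the gamma chain. It read 4.87, 5.51, 5.03 and 4.88 in the knockout spleens, against 5.10, 4.73, 5.08 and 4.77 in the wild-type spleens. The groups overlapped, with a difference of 0.15 ± 0.27 (SE), and 3 of the 8 arrays were above the random probes.

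**Figure D3:**
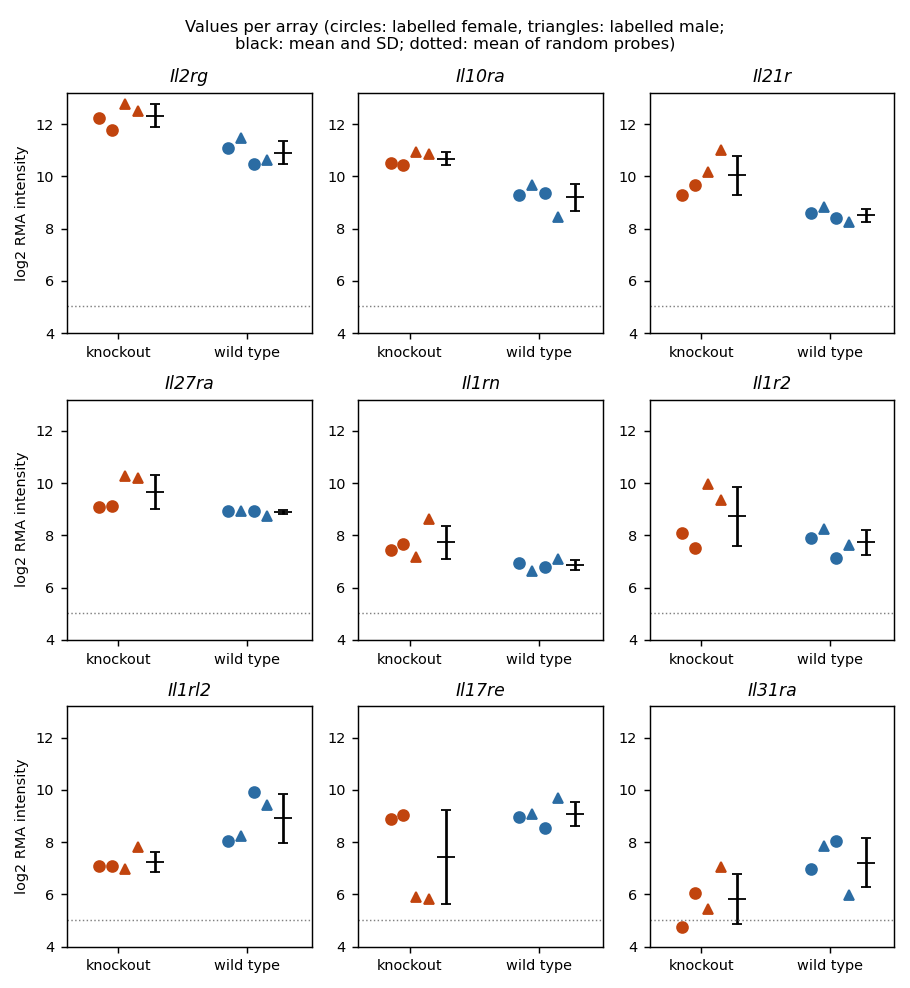
Log2 RMA intensity on each array (vertical axis) for the 9 receptor genes with an unadjusted limma p under 0.05, knockout left of wild type, with the mean and SD of 4 arrays in black and the random probes as a dotted line. Il2rg, Il10ra, Il21r, Il27ra and Il1rn show no overlap with knockout higher, Il1rl2 none with knockout lower, and the knockout values of Il17re fall into a pair near 9 and a pair near 6.

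In the class II family, which holds the receptors for interleukin-10 and its relatives, one chain of the interleukin-10 receptor stood out and its partner did not. Il10ra (chr9:45061921-45077229, MM9) encodes the chain that binds interleukin-10, the cytokine that restrains macrophages and T cells. It read 10.51, 10.42, 10.92 and 10.85 in the knockout spleens, against 9.29, 9.67, 9.37 and 8.45 in the wild-type spleens. The knockout values lay close together and all above the wild-type values, among which WT-4 was lowest. The difference was 1.48 ± 0.34 (SE), or 2.78-fold, with an unadjusted p of 0.00182 and an adjusted p of 0.262 in limma, and 1.13 without the Mim2 arrays. The other feature above random probes on all arrays differed by 0.52 with an unadjusted p of 0.107 in limma. Its genotypes barely failed to overlap, with Mim2-2 at 6.48 and WT-2 at 6.47. The dimmest feature of the gene differed by 0.14.

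Il10rb (chr16:91406479-91425884, MM9), the second chain of that receptor and of several others in the family, read 10.67, 10.24, 10.70 and 10.57 in the knockout spleens, against 10.64, 10.27, 10.26 and 10.38 in the wild-type spleens. The groups overlapped, and the difference was 0.16 ± 0.27 (SE), or 0.10 to 0.27 with 1 array left out. Il28ra, the binding chain for interferon lambda, differed by -0.56 and Il20rb, a chain of the interleukin-20 receptor, by -0.55, both above random probes on all arrays and neither with an unadjusted p under 0.05 in limma. Its partner Il20ra was above random probes on 5 of 8 arrays.

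Among the receptors that use gp130 or belong to the interleukin-12 family, the gene that was higher in knockout spleens was Il27ra (chr8:86554217-86566474, MM9), whose product joins gp130 to receive interleukin-27. It read 9.08, 9.11, 10.29 and 10.18 in the knockout spleens, against 8.94, 8.95, 8.94 and 8.76 in the wild-type spleens. The genotypes did not overlap, but the Mim1 arrays lay just above the wild-type values while the Mim2 arrays lay more than 1 unit above them. The difference was 0.76 ± 0.32 (SE), with an unadjusted p of 0.042 and an adjusted p of 0.348 in limma. Without the Mim2 arrays it was 0.15.

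Il6ra (chr3:89673245-89717084, MM9), the binding chain for interleukin-6, read 10.31, 9.72, 9.80 and 10.74 in the knockout spleens, against 10.41, 10.82, 10.37 and 10.63 in the wild-type spleens. The groups overlapped at its brightest feature, with a difference of -0.41 ± 0.31 (SE), or -0.22 without Mim2-2. Its second feature averaged 7.90 in knockout and 9.30 in wild-type spleens without overlap, a difference of -1.41 with an unadjusted p of 0.00271 and an adjusted p of 0.262 in limma. That feature was chosen here after its values were seen. Il11ra1, the interleukin-11 receptor, differed by 0.05.

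Il31ra (chr13:113319583-113384568, MM9), the receptor chain for the itch cytokine interleukin-31, was lower in knockout spleens on average. It read 4.77, 6.04, 5.46 and 7.06 in the knockout spleens, against 6.98, 7.84, 8.05 and 5.99 in the wild-type spleens. The groups overlapped through Mim2-3 and WT-4, and Mim1-5 was not above the random probes. The difference was -1.38 ± 0.60 (SE), with an unadjusted p of 0.0462 and an adjusted p of 0.355 in limma, and the other features of the gene differed by -0.66 and 0.40. Il12rb1, the chain that the interleukin-12 and interleukin-23 receptors share, was above random probes on 0 knockout and 3 wild-type arrays. It read 4.52, 4.50, 5.01 and 4.58 in the knockout spleens, against 5.84, 8.45, 5.54 and 4.72 in the wild-type spleens, a difference of -1.49 with an unadjusted p of 0.0556 in limma. WT-2 was far above the other arrays, and WT-4 lay below the random probes like the knockout arrays. Il23r, the specific chain of the interleukin-23 receptor, was above random probes on 0 knockout arrays and 1 wild-type array.

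The interleukin-1 receptor family, of which 6 genes lie side by side between Il1r2 at chr1:40141636-40182072 and Il18rap at chr1:40572206-40606029 (MM9), held differences of both signs among neighbours. Il1r2 encodes a decoy that binds interleukin-1 and sends no signal. It read 8.10, 7.52, 9.96 and 9.34 in the knockout spleens, against 7.90, 8.26, 7.12 and 7.64 in the wild-type spleens. Only the Mim2 arrays lay above the wild-type range. The difference was 1.0 ± 0.40 (SE), with an unadjusted p of 0.0339 and an adjusted p of 0.334 in limma, and 0.30 without the Mim2 arrays. Next to it, Il1r1, the signalling receptor of interleukin-1, was at 7.39 to 8.85 in knockout and 6.23 to 7.70 in wild-type spleens, a difference of 0.84 with an unadjusted p of 0.0726 in limma.

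Il1rl2 (chr1:40381534-40422316, MM9), the receptor for the interleukin-36 cytokines of skin and other linings, went the other way. It read 7.10, 7.10, 6.98 and 7.80 in the knockout spleens, against 8.05, 8.22, 9.94 and 9.44 in the wild-type spleens. All knockout arrays lay below all wild-type arrays, with the gap narrowest between Mim2-3 and WT-1. The difference was -1.67 ± 0.47 (SE), with an unadjusted p of 0.00639 and an adjusted p of 0.269 in limma, and -1.90 without the Mim2 arrays. The second feature of the gene differed by -0.32. Its promoter, chr1:40324339-40324638 on the plus strand of GRCm38.p6 from RefSeq, is shown as that of the receptor gene with the lowest difference, and its capitals mark the reverse complement of the RUNX core.
Il1rl2 promoter: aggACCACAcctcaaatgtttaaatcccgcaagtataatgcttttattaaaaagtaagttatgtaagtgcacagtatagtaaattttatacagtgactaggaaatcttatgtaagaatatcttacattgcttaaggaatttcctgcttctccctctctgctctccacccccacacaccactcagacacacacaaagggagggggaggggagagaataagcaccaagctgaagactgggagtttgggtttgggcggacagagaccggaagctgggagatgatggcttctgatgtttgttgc

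The remaining genes of that stretch gave smaller differences: Il18r1, the binding chain for interleukin-18, by 0.21, Il18rap, its partner, by -0.04, and Il1rl1, the receptor for interleukin-33, by 0.64, none with an unadjusted p under 0.05 in limma. The brightest features of Il18rap and Il1rl1 lay above random probes on 4 and 7 of 8 arrays. The second feature of Il1rl1, above them on 6 arrays, differed by -0.80, so the sign depended on the feature. The accessory protein Il1rap, which most receptors of the family need, differed by 0.11. Il1rapl1 and Il1rapl2, relatives known mainly from neurons, lay above random probes on 7 and 6 arrays.

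Il1rn (chr2:24192402-24207005, MM9), whose product blocks the interleukin-1 receptor, read 7.45, 7.69, 7.18 and 8.61 in the knockout spleens, against 6.94, 6.63, 6.78 and 7.09 in the wild-type spleens. The genotypes did not overlap, though Mim2-2 and WT-4 lay close together. The difference was 0.87 ± 0.36 (SE), with an unadjusted p of 0.0377 and an adjusted p of 0.34 in limma, and 0.55 without Mim2-3. Its second feature, also above random probes on all 8 arrays, differed by -0.68, so the features of this gene ran in opposite directions.

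Such disagreement was common. Of the 35 genes, 22 had several features, and in 13 of them the features differed in sign, beside 51.2% of all genes with several features. Restricted to features above random probes on all 8 arrays, 12 genes had several and 6 had opposite signs, beside 45.1% of all such genes. Il10ra, Il1rl2, Il17re and Il6ra were among the genes with one sign over all their features. Averaged over all features, Il10ra differed by 0.71, Il21r by 0.61, Il1rl2 by -0.99, Il31ra by -0.55 and Il1rn by 0.09, and 2 genes rather than 5 had every knockout array above every wild-type array. Il2rg, Il27ra and Il1r2 rest on 1 feature each.

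**Figure D4:**
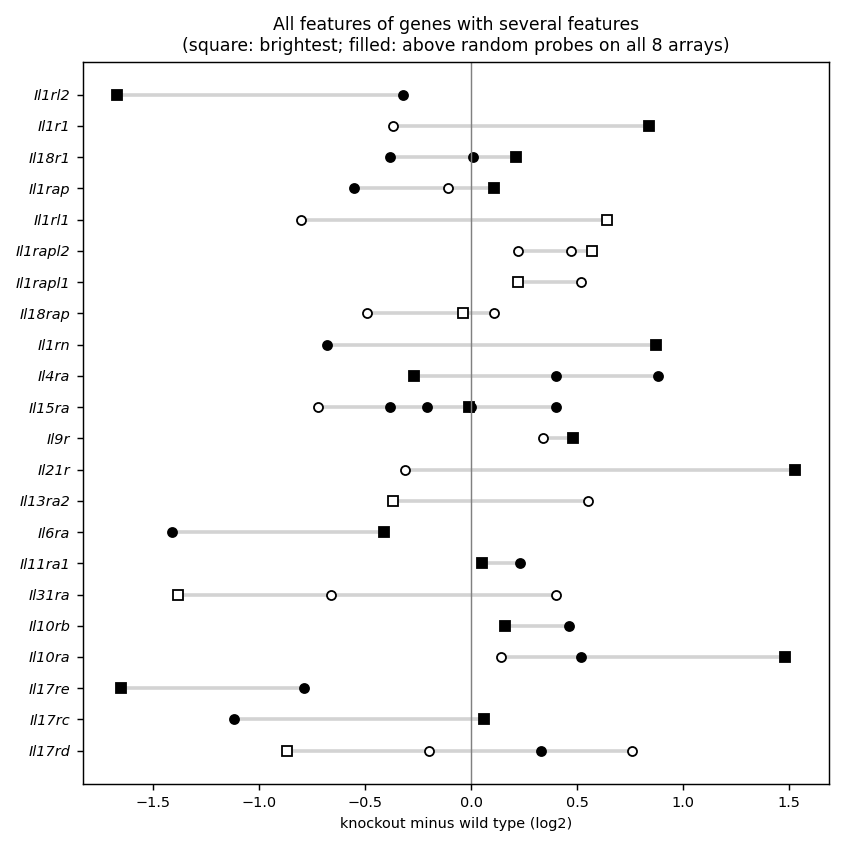
Knockout minus wild type difference (log2, horizontal axis) of every feature of the 22 receptor genes with several features, 1 row per gene, with squares for the brightest feature and filled symbols for features above random probes on all 8 arrays. The features of Il1rn lie at 0.87 and -0.68, and those of Il1rl2, Il6ra and Il17re all lie left of 0.

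In the interleukin-17 receptor family the difference at the brightest feature of Il17re rested on the Mim2 arrays. Il17re (chr6:113408800-113420370, MM9), the receptor for the epithelial cytokine interleukin-17C, read 8.89, 9.06, 5.89 and 5.83 in the knockout spleens, against 8.98, 9.07, 8.55 and 9.68 in the wild-type spleens. The Mim1 arrays lay inside the wild-type range, and the Mim2 arrays lay far below it and less than 1 unit above the random probes. The pooled difference was -1.65 ± 0.68 (SE), with an unadjusted p of 0.0366 and an adjusted p of 0.337 in limma. Within labelled females the knockout minus wild type difference was 0.21 and within labelled males -3.52, and the test of the difference between these gave an unadjusted p of 0.000147 and an adjusted p of 0.162 in limma. Without the Mim2 arrays the difference was the same 0.21, since the fit then sets the Mim1 arrays against the wild-type females alone. It is no second check. The second feature of Il17re, above random probes on all 8 arrays, differed by -0.79, with -0.45 within labelled females and -1.13 within labelled males. There Mim2-2 was lowest at 6.29, while Mim2-3 at 7.38 lay beside Mim1-6 at 7.36. Only Mim1-5 lay inside the wild-type range, so the split was not shared by both features.

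The neighbour Il17rc encodes the partner chain for IL-17A and IL-17F. It had the pattern of the brightest Il17re feature in one of its features, chosen here after its values were seen. That second feature (chr6:113421500-113433134, MM9) read 8.44, 8.61, 5.59 and 5.33 in the knockout spleens, against 7.95, 8.30, 7.52 and 8.69 in the wild-type spleens. The Mim2 arrays again lay near the random probes and the Mim1 arrays within the wild-type range. The brightest feature of Il17rc, at 7.46 to 8.19 in knockout and 7.44 to 8.18 in wild-type spleens, did not show it. Il17ra, the chain common to the family, differed by -0.51, and Il17rd, a member that also restrains fibroblast growth factor signalling, by -0.87, both above random probes on 7 of 8 arrays. The promoter of Il17re is shown for this split, chr6:113458521-113458820 on the plus strand of GRCm38.p6 from RefSeq, with the reverse complement of GAGGAA in capitals.
Il17re promoter: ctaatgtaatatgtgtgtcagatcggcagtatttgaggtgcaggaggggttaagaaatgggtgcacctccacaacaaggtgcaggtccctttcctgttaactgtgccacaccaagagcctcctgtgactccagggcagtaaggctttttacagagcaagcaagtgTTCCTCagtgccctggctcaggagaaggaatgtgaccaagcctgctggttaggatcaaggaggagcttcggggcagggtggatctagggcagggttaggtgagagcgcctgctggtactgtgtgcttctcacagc

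The chemokine receptor Il8rb, or Cxcr2 (chr1:74200594-74207820, MM9), which draws neutrophils out of the marrow, read 8.27, 7.08, 9.34 and 9.39 in the knockout spleens, against 8.12, 8.06, 7.07 and 6.80 in the wild-type spleens. The Mim2 arrays were highest and the rest overlapped. The difference was 1.01 ± 0.52 (SE), with an unadjusted p of 0.0833 in limma, and 0.08 without the Mim2 arrays. Without WT-4 it was 0.57. Its neighbour Il8ra, or Cxcr1, was above random probes on 5 of 8 arrays and differed by -0.51.

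The Mim2 arrays shaped several of these values, and the labelled sexes of the knockout mice are split the same way. In the test of the difference between labelled males and labelled females, 5 receptor genes had an unadjusted p under 0.05 in limma, beside 13.6% of all genes, and 0 an adjusted one, beside 0% of all features. They were Il17re, Il15ra, Il1rapl2, Il27ra and Il28ra. For Il15ra the knockout minus wild type difference was 1.13 within labelled females and -1.15 within labelled males. Its array values were 10.85, 10.29, 9.44 and 8.92 in the knockout spleens, against 9.99, 10.10, 8.89 and 10.57 in the wild-type spleens, with the Mim1 pair above the wild-type females and the Mim2 pair below the wild-type males. For Il28ra the differences were 0.36 within labelled females and -1.47 within labelled males, and for Il27ra they were 0.15 and 1.38. Without the Mim2 arrays, 4 receptor genes were higher in knockout spleens at an unadjusted p under 0.05 in limma, Il2rg, Il10ra, Il21r and Il1r1. In the same fit 2 were lower, Il1rl2 and Il31ra. Beside them, 2.76% of all genes were higher and 3.41% lower.

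Markers of other cells moved beside the receptor genes. At an unadjusted p under 0.05 in limma, 7.7% of all genes were higher and 6.61% lower, which stands beside every marker count below. Of 10 B cell markers, 8 were higher in knockout spleens at an unadjusted p under 0.05 in limma, among them Cr2 by 2.66 and Blk by 1.96, and 0 were lower. Their mean log2 intensity was 9.67, 9.31, 10.31 and 10.09 in the knockout spleens, against 8.80, 8.61, 8.75 and 8.24 in the wild-type spleens, and their summed intensity was 11864 to 21194 in knockout and 4495 to 7673 in wild-type spleens. No B cell marker was at the level of random probes on any array. The Mim2 arrays, highest for these markers, were also highest for Il2rg, Il10ra, Il21r and Il27ra, and WT-4, lowest for these markers, was lowest for Il10ra, Il21r and Il27ra but not for Il2rg. Of 10 T cell markers, 5 were higher at an unadjusted p under 0.05 and 0 lower, with summed intensity of 7456 to 12709 in knockout and 5565 to 7388 in wild-type spleens. Of 9 macrophage markers, 3 were higher and 1 lower, with sums of 22942 to 34490 in knockout and 13395 to 26179 in wild-type spleens. The part of these cell types in the receptor results was not tested.

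Of 10 neutrophil markers, a list that includes Il8rb, 3 were lower and 0 higher at an unadjusted p under 0.05, with summed intensity of 4178 to 10440 in knockout and 9351 to 16242 in wild-type spleens. Ngp, Ly6g and Elane were at the level of random probes on some arrays. Of 10 mast cell and basophil markers, 1 was higher and 0 lower, with sums of 3214 to 5216 in knockout and 3625 to 4620 in wild-type spleens. Cpa3, Fcer1a, Hdc and Cma1 were at the level of random probes on some arrays. The part of these cell types in the result on Il8rb was not tested.

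Genes of mammary epithelium and milk were bright in these spleens. Of 10 such genes, 7 were lower and 1 higher in knockout spleens at an unadjusted p under 0.05 in limma. Their mean log2 intensity was 11.01, 10.74, 8.44 and 9.90 in the knockout spleens, against 11.83, 11.61, 11.55 and 11.91 in the wild-type spleens, and their summed intensity was 6927 to 83068 in knockout and 103471 to 122480 in wild-type spleens. The Mim2 arrays, on which the brightest feature of Il17re and the second feature of Il17rc were low, had the lowest values of this list. Wap and Krt19 were at the level of random probes on some arrays. Of 8 adipocyte markers, 4 were higher and 0 lower, with means of 7.44, 7.34, 11.10 and 10.72 in the knockout spleens, against 7.69, 7.82, 7.72 and 7.50 in the wild-type spleens, and sums of 3176 to 38261 in knockout and 3393 to 7970 in wild-type spleens. Here the Mim2 pair was far above the rest. Of 10 pancreas markers, 7 were higher and 0 lower, with sums of 929 to 1645 in knockout and 459 to 561 in wild-type spleens. Only 3 of these 10 lay above random probes on all 8 arrays. Cpa1, Clps, Pnlip, Prss2, Cel, Ins1 and Gcg were at the level of random probes on some arrays. The part of these tissues in the receptor results was not tested.

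**Figure D5:**
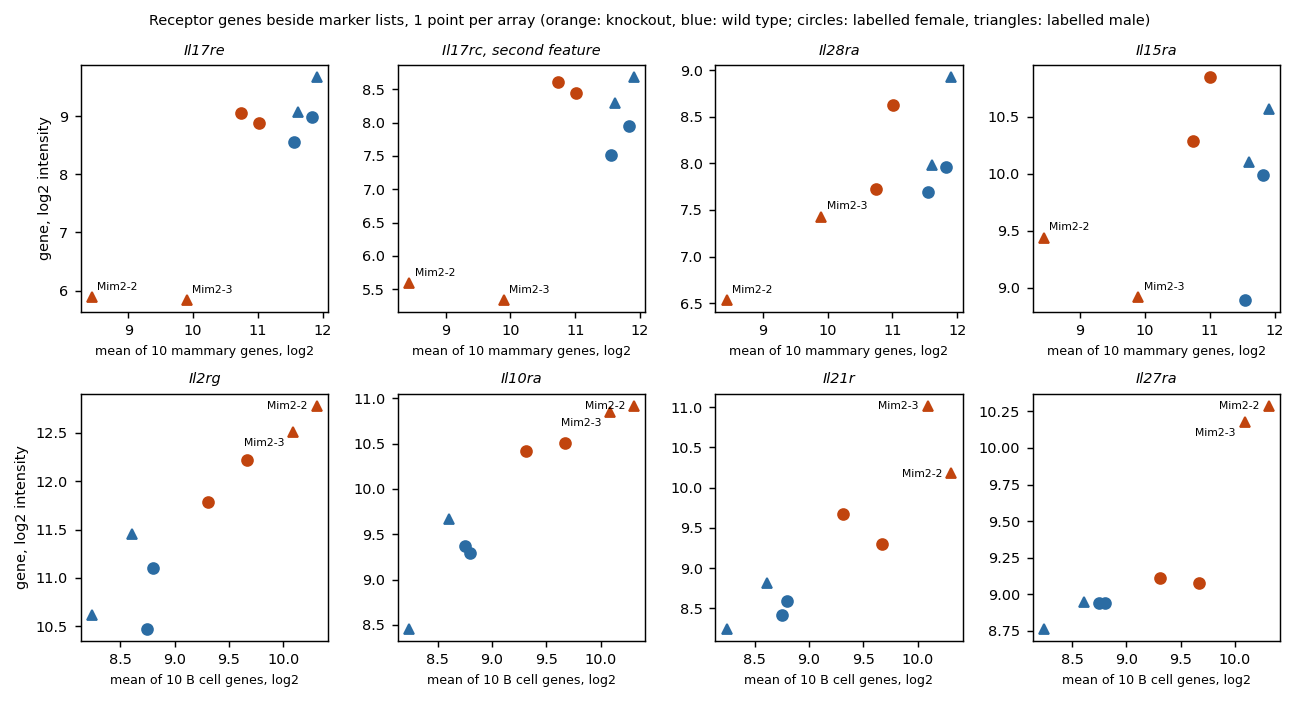
Log2 RMA intensity of receptor genes (vertical axes) against the mean log2 intensity of 10 mammary and milk genes (upper row) or 10 B cell genes (lower row), 1 point per array, orange for knockout and blue for wild type. Il17re and the second feature of Il17rc are low on the arrays Mim2-2 and Mim2-3 alone, which also have the lowest mammary means of 8.44 and 9.90.

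None of the genes of the interleukins themselves passed the adjusted threshold. Of 38 ligand genes measured, 25 were higher and 13 lower in knockout spleens, with a median difference of 0.24, against 0.06 over all genes, and 6 were higher and 1 lower at an unadjusted p under 0.05 in limma, beside 7.7% and 6.61% of all genes. Only 17 of the 38 lay above random probes on all 8 arrays, and the other 21 were at or under them on some. Il16, a chemoattractant of CD4+ cells, was at 10.13 to 11.21 in knockout and 8.78 to 9.85 in wild-type spleens, a difference of 1.39. Il1b, the inflammatory ligand of Il1r1 and Il1r2, was at 8.09 to 9.17 in knockout and 6.79 to 7.89 in wild-type spleens, a difference of 1.33. Neither ligand overlapped between genotypes.

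Il18, made by macrophages, differed by 1.17 without overlap, and its receptor chains Il18r1 and Il18rap differed by 0.21 and -0.04. Il18rap was above random probes on 4 of 8 arrays, so its value sets no contrast to the ligand. Il23a, the specific subunit of interleukin-23, was at 4.94 to 6.23 in knockout and 6.52 to 9.27 in wild-type spleens, a difference of -2.23 without overlap. Its receptor chains Il23r and Il12rb1 were above random probes on 1 and 3 of the 8 arrays.

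Partner chains outside the name rule showed no difference at an unadjusted p under 0.05 in limma, 0 of 9 measured. Among all genes the share was 14.3% in either direction. The nearest were Osmr, the oncostatin M receptor, at -0.58, Sigirr, an inhibitory relative of the interleukin-1 receptor, at 0.58, Csf3r, the granulocyte colony-stimulating factor receptor, at 0.63, and Crlf2, the receptor for the cytokine TSLP, at -0.30. Of the 5 left-out receptor genes, 3 were higher and 0 lower at an unadjusted p under 0.05, beside 7.7% and 6.61% of all genes. They were Il2ra by 1.28 and Il2rb by 0.92, the alpha and beta chains of the interleukin-2 receptor, and Il7r, the interleukin-7 receptor of lymphocyte precursors and T cells, by 1.17. Il13ra1 differed by -0.43.

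Of the 18 kinases, STAT proteins and adaptors next to these receptors, 1 was higher and 2 lower at an unadjusted p under 0.05 in limma. Among all genes, 7.7% were higher and 6.61% lower at that threshold. Myd88, the adaptor of the interleukin-1 family, was at 8.75 to 10.73 in knockout and 10.83 to 11.26 in wild-type spleens, a difference of -1.14 without overlap. Stat3, which carries signals of IL-6, IL-10 and IL-21, differed by -0.92 with overlap, and Stat2, which acts behind interferon receptors, by 0.77. Stat5a, behind IL-2 and IL-7, differed by -0.72 with an unadjusted p of 0.0694 in limma. Within labelled females and labelled males, the differences were -0.43 and -1.85 for Myd88 and -0.17 and -1.67 for Stat3. They were -0.14 and -1.31 for Stat5a and 0.78 and 0.75 for Stat2. For Stat3 the Mim1 arrays lay inside the wild-type range and the Mim2 arrays below it. The adjusted p of every gene in these lists was above 0.05 in limma.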

How the data were processed

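Spleen RNA of 8 mice, 4 per genotype, was hybridised in 1 colour. The authors deposited 1 table per array with a linear intensity per feature, tied to RMA by the submitters' processing notes, which corrects background, normalizes between arrays and summarises probes. The deposited intensity of the series table holds 21856 of the features at the same values, to a relative tolerance of 1e-06, and it served as an alternative. Per the file headers, 44155 of 44170 features rest on 3 probes, positions are those of MM9, and an entry of 5000 random probes gives the background. The authors' standard error score per feature was not used.

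The deposited intensity was taken to log2 without further normalization and tested with limma 3.58.1 (R 4.3.3) in a two-sided test with an additive term for labelled sex, after a check on simulated data. Benjamini-Hochberg adjustment ran over all 44170 features except the random entry. An interaction fit compared the labelled sexes, and exact permutation tests used the 70 arrangements. Array number limits the precision. The labels call the spleens separate, so each array counted as 1 animal.

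The genes, the families, the lists of ligands, partner chains, left-out receptors, transducers and cell markers, and the tests were chosen with earlier results of these data known. Every array's value is given for genes with an unadjusted limma p under 0.05 or without overlap, and for the brightest gene of each family if above the random probes on all arrays, and Il5ra, Il12rb1, Il15ra and 1 further feature of Il17rc were added after their values were seen. Up to 4 genes per other list are named, by smallest p. Alternatives covered the series table, quantile normalization, filters, floors, variance models, array weights, the sex term, averaged features and left-out arrays. RefSeq promoter sequences were matched by gene identifier, for 29 of the 35 genes.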

Additional observations from a re-analysis of the deposited data

Results flagged for a closer look

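Within a genotype, 4 of the 70 groups of 4 arrays held 1 array far from the others, where chance gives about 1 in 20. The gap to the nearest array, as a share of the group's range, was 0.851 for Il1rl2 in the knockout, where Mim2-3 read 7.80 against 6.98 to 7.10 on the other 3 arrays. It was also 0.851 for Il12rb1 in the knockout, where Mim2-2 read 5.01 against 4.50 to 4.58, all below the random probes. In the wild type it was 0.866 for Il1rap, an accessory chain, where WT-2 read 5.06 against 6.55 to 6.78, and 0.959 for Il27ra, where WT-4 read 8.76 against 8.94 to 8.95.

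For 2 genes every knockout array moved one way within labelled females and the opposite way within labelled males, a pattern present in 7.45% of all genes. For Il15ra the male minus female difference between the genotype effects was -2.28, with an adjusted p of 0.242 in limma. For Il1rapl2, above random probes on 6 of 8 arrays, it was 2.49, from 1.82 within labelled males and -0.67 within labelled females, with an adjusted p of 0.257 in limma. In the knockout the labelled sex coincides with the Mim1 and Mim2 prefixes, so these cannot be told apart.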

How the results depend on the processing

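Over the alternatives, 202 of 203 single-gene values for 12 receptor genes kept their direction and 0 passed the adjusted threshold, with adjusted p from 0.0789 to 0.998 in limma. The exception was Il17re, at 0.21 without both Mim2 arrays, which is its difference within labelled females. Many of these values could not differ from the main fit. The series table, the filter and the trended and robust variance leave a gene's difference as it is. Dropping the sex term does so too, since the labelled sexes are balanced. The count of kept directions is therefore no measure of agreement. Il2rg, Il10ra and Il1rl2 had an unadjusted p under 0.05 in every setting. Trended and robust variance passed 16 of all features, against 0 otherwise. Leaving out 1 array gave 3 to 6 receptor genes higher and 1 to 3 lower at an unadjusted p under 0.05 in limma. There were 3 higher without WT-2 or WT-4, beside 5.17% and 4.58% of all genes. There was 1 lower without Mim2-2 or WT-2, beside 4.87% and 3.85% of all genes. Genes without overlap numbered 5 to 7 higher and 1 to 3 lower under the same omissions, 2 or 3 lower without Mim1-5, Mim2-2, Mim2-3 or WT-4. Without both Mim2 arrays 4 were lower. Such counts can only stay or rise when arrays are left out. The share of all genes was not computed for them, so the rise says nothing particular to the receptor genes. With features averaged per gene, 2 were higher without overlap. The median difference was 0.21 in the series table, which holds 19 of the genes, and -0.04 to 0.11 with 1 array left out. The causes of these shifts were not tested. No paired analysis was possible because no label links a knockout animal to a wild-type animal. Signal near the random probes limits the 14 genes that were not above them on every array. A block for slide or scan was not run, since the tables name neither.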
